A study of Mus musculus with 9 samples.

Results

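The distal end of mouse chromosome 2, from 160 Mb onward in build mm9, carried more nascent transcription in G1E-ER4 cells than in their parent line G1E, across nearly all of its active genes. The domain was chosen by that measured difference in counts between the lines, which is therefore described here without a test. The time course in G1E-ER4 is tested, but its starting libraries entered that difference, so tests against them are not independent of the choice. Its members are the entries of the deposited dREG peak table that lie on chromosome 2 and start at or after position 160000000. They number 498 of the 42114 entries in the table, 136 of them whole peaks and 362 single strands of a peak, and come from 317 peaks, so entries of 1 peak are not independent. The first starts at 160428550 and the last ends at 181721801, a span of 21.3 Mb. A further set of members is the 127 genes that the peak table names at a start in the domain, among 24391 genes with gene-body counts. The rest of chromosome 2, with 2909 entries and 728 such genes, served for comparison.

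PRO-seq labels the RNA that engaged RNA polymerase is making, and was measured in 9 libraries from mouse red cell progenitors grown in medium with erythropoietin and kit ligand. G1E (n = 2, untreated) lacks working GATA1, the transcription factor that directs red cell maturation. G1E-ER4 is derived from it and carries GATA1 fused to the ligand-binding domain of the oestrogen receptor, which makes GATA1 active when estradiol is added. G1E-ER4 was sampled without estradiol (0 h, n = 3), with 100 nM estradiol for 13 h (n = 2), and with the same dose for 24 h (n = 2). The labels give no genotype beyond the line and do not tell if replicates are separate cultures, and the p-values cover no more than the spread between these libraries. Every comparison of the lines sets 1 parent line against 1 derived line. DNA copy number was not analysed here, and more copies of a region cannot be told apart from more polymerase per copy in these data.

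dREG peaks are regions where polymerase initiates, at promoters and at enhancers, usually in both directions, and gene-body reads follow polymerase that has moved on into the gene. The stretch from 160 Mb to the end of mouse chromosome 2 has no single function. It holds genes of many roles, among them the imprinted Gnas locus, the mitotic kinase gene Aurka, the cell cycle transcription factor gene Mybl2, the myeloid regulator gene Cebpb, the platelet tubulin gene Tubb1 and Fam210b, whose mitochondrial product acts in haem synthesis of red cells. GATA1 binds short sites built on the letters GATA, and the red cell factor KLF1 binds sites that contain CACCC.

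The 4 genes with promoters printed here gave large changes after estradiol, Tubb1 and Fam210b upward and Npepl1 and Ddx27 downward. Ptk6 rose more by 24 h, with a log2 fold change of 9.78, and Rps21 and Rgs19 fell more, with -3.15 and -3.01. Printed are the 250 bases before the start of each of the 4 genes. They are RefSeq sequences of build GRCm38.p6, 5′ to 3′ on the strand of the gene, and lie at chr2:174450345-174450594, chr2:172345327-172345576, chr2:174110101-174110350 and chr2:167015063-167015312, all on the plus strand. Capitals mark CACCC or its complement GGGTG.
Tubb1: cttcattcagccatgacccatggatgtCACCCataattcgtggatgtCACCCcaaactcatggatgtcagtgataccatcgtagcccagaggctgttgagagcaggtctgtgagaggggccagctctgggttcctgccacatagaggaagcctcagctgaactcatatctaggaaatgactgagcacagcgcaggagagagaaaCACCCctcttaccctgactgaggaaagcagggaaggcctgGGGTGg
Fam210b: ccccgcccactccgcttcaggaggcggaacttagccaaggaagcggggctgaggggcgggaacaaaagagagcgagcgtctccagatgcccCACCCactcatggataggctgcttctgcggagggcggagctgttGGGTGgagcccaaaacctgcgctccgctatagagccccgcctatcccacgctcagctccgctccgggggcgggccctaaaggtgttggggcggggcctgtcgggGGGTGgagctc
Npepl1: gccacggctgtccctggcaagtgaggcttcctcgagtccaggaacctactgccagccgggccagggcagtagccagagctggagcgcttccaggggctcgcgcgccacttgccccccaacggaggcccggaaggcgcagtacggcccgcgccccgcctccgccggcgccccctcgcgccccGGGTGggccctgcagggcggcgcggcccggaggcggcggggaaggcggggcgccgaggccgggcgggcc
Ddx27: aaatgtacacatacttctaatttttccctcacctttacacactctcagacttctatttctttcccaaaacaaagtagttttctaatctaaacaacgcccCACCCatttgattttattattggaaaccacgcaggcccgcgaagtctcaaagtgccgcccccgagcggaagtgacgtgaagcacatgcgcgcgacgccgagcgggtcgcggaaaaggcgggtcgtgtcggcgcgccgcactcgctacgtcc
CACCC occurred 4 times in the Tubb1 window, 3 times in that of Fam210b and 1 time each in those of Npepl1 and Ddx27, both strands counted. The GATA forms searched were AGATAA, present on either strand in 4.48% of the promoters of the domain and 9.99% of all promoters, and TGATAA, present in 4.48% and 7.94%. The form AGATAG was present in 5.97% and 7.71%, and the form TGATAG in 6.72% and 6.35%. None of the 4 windows held any of them. At least 1 of these GATA forms was present in 25 of 134 promoters of the domain (18.7%), which belong to the 97 member genes with a RefSeq promoter, and in 26.5% of all 32851 promoters of that length. CACCC was present in 56.7% of the promoters of the domain and 52.0% of all promoters. A match is a run of letters, and binding was not measured.

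Element reads summed to between 15394427 and 59952454 per library and gene-body reads to between 37830789 and 139945759. All 10 markers of red cell progenitors reached 1 CPM (read count scaled to library size with TMM factors). They summed to 2210 to 3260 CPM in G1E, 1780 to 2050 CPM at 0 h and 2430 to 3320 CPM later. T cell markers summed to 2.19 to 3.07 CPM in G1E and to 0.529 to 0.945 CPM at 0 h, B cell markers to at most 1.43 CPM in any library, granulocyte and monocyte markers to 0.298 and fibroblast markers to 0.202. Endothelial markers summed to 6.9 to 9.69 CPM in G1E, 0.943 to 4.07 CPM at 0 h and at most 2.71 CPM later. Mast cell markers, of which 2 of 4 reached 1 CPM, summed to 29.0 to 81.6 CPM in G1E and at 0 h and to at most 0.271 CPM at 13 h and 24 h. Megakaryocyte markers, of which 2 of 4 reached 1 CPM, summed to 47.6 to 48.6 CPM in G1E, 23.4 to 32.3 CPM at 0 h and 13.4 to 28.5 CPM later. The summed markers of red cell progenitors, T cells, megakaryocytes and endothelium were thus higher in G1E than at 0 h without overlap. Red cell progenitor markers went both ways, with Kit at a mean of 1010 CPM in G1E and 562 CPM at 0 h, and Lmo2 at 193 and 223 CPM. The sums of T cells, megakaryocytes and endothelium each rested mainly on 1 gene. These were Cd3g (mean of 2.5 CPM in G1E and 0.709 CPM at 0 h), Itga2b (45.6 and 26.8) and Kdr (7.46 and 1.83). Only 1 of 4 T cell markers and 1 of 3 endothelial markers reached 1 CPM. Cd3e went the other way, from 0.00501 to 0.0236 CPM. In these bulk libraries fewer cells of a type and less RNA per cell cannot be told apart. The part of these changes in the results on the domain was not tested.

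The domain took a larger share of the element reads of chromosome 2 in every G1E-ER4 library than in either G1E library. All 498 entries enter this share, with no filter. It was 17.0% and 17.3% in G1E, 22.9%, 24.5% and 24.1% at 0 h, 25.7% and 25.2% at 13 h, and 26.1% and 27.8% at 24 h. The G1E libraries averaged 17.1% ± 0.212 (SD, n = 2) and the 0 h libraries 23.8% ± 0.833 (SD, n = 3), and the ranges of the lines did not overlap. The same share over gene bodies, of all reads in chromosome 2 genes named at a start, was 13.4% and 14.2% in G1E. In G1E-ER4 it was 19.1%, 18.9% and 18.3% at 0 h, 21.5% and 21.2% at 13 h, and 20.6% and 20.7% at 24 h. These shares are dominated by genes and elements with many reads, so the shift of the typical member is given next.

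In the fit over all libraries, 124 of the 127 genes passed the filter on low counts. The 3 that did not were 2310001K24Rik, Mir3091 and Snord12. Between G1E-ER4 at 0 h and G1E, the tested genes of the domain had a median log2 fold change of 0.64, a fold of 1.56, with quartiles of 0.40 and 0.82. The rest of chromosome 2 had a median of 0.09 over 707 tested genes, with quartiles of -0.09 and 0.30, and all 13825 tested genes a median of 0.04. The spread within the domain, an interquartile range of 0.42, was close to the 0.39 of the rest of the chromosome, so the domain's values were displaced as a body. Of the 124 genes, 117 lay above 0 (94.4%, against 63.6% on the rest of chromosome 2), and 89 lay between 0.3 and 1.0 (71.8%, against 19%). With 2 genes that had no reads in G1E set to the bound that 3 reads allow, the median was 0.62. By edgeR's test 63 genes of the domain were higher and 3 lower, against 7.88% and 9.58% of all genes, a count that the choice of the domain fixed.

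**Figure D1:**
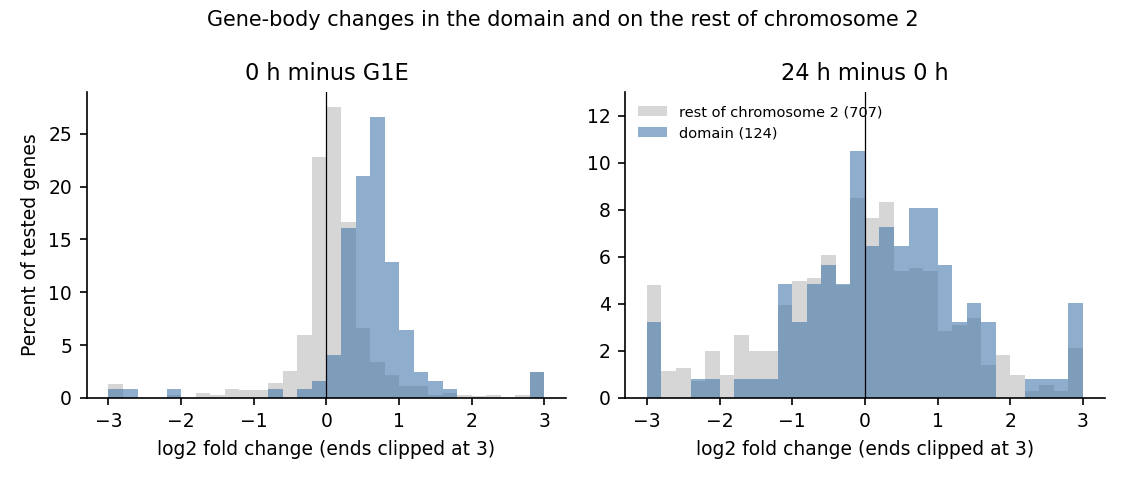
Percent of tested genes in bins of 0.2 log2 units for the 124 genes of the domain (blue) and 707 genes on the rest of chromosome 2 (grey), for G1E-ER4 at 0 h minus G1E (left) and 24 h minus 0 h (right). On the left the domain is moved to the right of the rest as a body, with medians of 0.64 and 0.09, and on the right both spread widely, with medians of 0.25 and -0.04.

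Elements shifted in the same direction with more scatter. The filter kept 417 of the 498 entries, whose median log2 fold change between 0 h and G1E was 0.57 with quartiles of -0.03 and 0.94, against 0.10 on the rest of chromosome 2 (n = 2441) and 0.01 over all 35158 tested. Of the 417 entries 99 were higher and 32 lower by edgeR's test, against 7.18% and 12.1% of all elements, again a count that the choice of the domain fixed. Entries at gene starts had a median of 0.68, with 91.6% above 0, against 0.21 for starts on the rest of the chromosome. Entries inside genes on the sense strand had a median of 0.52 against -0.04, intergenic entries 0.25 against -0.17, and entries antisense within genes 0.20 against 0.00. Entries with a mean of at least 1000 reads had a median of 0.64 and those under 100 reads one of 0.09, against 0.22 and -0.15 on the rest of the chromosome. The 2 kinds of entry were alike, with medians of 0.57 for whole peaks and 0.56 for single strands. Entries with no reads in 1 of the groups, 12 of the 417, moved the median to 0.54 when set to the bound that 3 reads allow.

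The shift was of similar size along the whole domain. In windows of 5 Mb, the median log2 fold change of gene bodies between 0 h and G1E was 0.68, 0.54, 0.63, 0.67 and 0.65 from the first to the last window. The element medians in these windows ran from 0.45 to 0.66. The 160 Mb limit lies in a gap without entries, since the last entry before it, at the start of Dhx35, ends at 158621951. That entry had a log2 fold change of 0.74 and the one before it, at the start of Fam83d, 1.5. The first 3 entries inside the limit, all intergenic, were at -0.02, -0.20 and 2.66. The values just outside the limit were thus as high as those inside it.

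**Figure D2:**
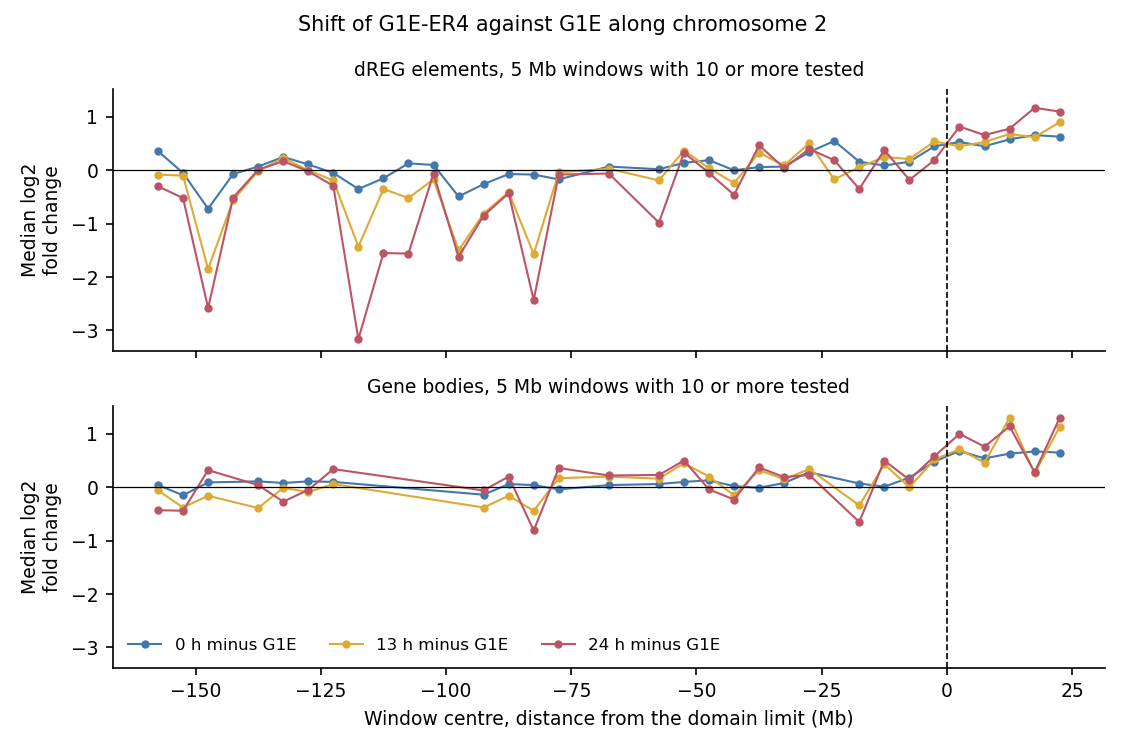
Median log2 fold change of G1E-ER4 against G1E in windows of 5 Mb along chromosome 2, for elements (top) and gene bodies (bottom), with 1 line per time in estradiol and the dashed line at the 160 Mb limit. All 3 lines lie above 0 in each window from the limit to the chromosome end, and the gene-body line of 0 h minus G1E is flat between 0.54 and 0.68 there.

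The raised stretch that runs into the domain began about 4 Mb before the limit. Between 155 and 156 Mb, 19 tested genes had a median log2 fold change of 0.04 (quartiles -0.00 and 0.27), and 5 of them reached 0.3. Between 156 and 158.7 Mb, 27 tested genes had a median of 0.62 (quartiles 0.48 and 0.74), and 25 reached 0.3. Elements gave medians of 0.03 (n = 58) and 0.68 (n = 120) in these 2 stretches. High values were also found farther out, since between 150 and 151 Mb elements had a median of 0.70 (25 of 28 above 0) and genes one of 0.37 (11 of 13 above 0). In the next 4 windows of 1 Mb, up to 155 Mb, the medians ran from -0.29 to 0.29 for elements and from -0.09 to 0.16 for genes. The last genes before the step were Rbm12 at 0.00 ± 0.24 (SE), Romo1 at -0.10 ± 0.24 and Nfs1, a cysteine desulfurase of iron-sulphur cluster assembly whose start peak begins at 155968500, at -0.00 ± 0.14. Rbm39, a splicing factor gene whose start peak begins at 156004650, was at 0.40 ± 0.14, Phf20 at 0.92 ± 0.19 and Cnbd2 at 1.18 ± 0.12. The sperm gene Spag4, before the step, was at 1.21 ± 0.31, and after it Tgm2, the gene of tissue transglutaminase, was at -2.87 ± 0.33. The step was seen after the values were known and has no test. With the rest of chromosome 2 cut at 156 Mb, the shift of the domain over the rest was 0.56 for genes in place of 0.55 and 0.49 for elements in place of 0.47.

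Few tested genes of the domain lay at or below 0 between the lines. The 7 of 124 at or below 0 were Tcea2, Lpin3, Ctsz, Gm14327, Ptk6, Rbm38 and Lama5. Lpin3, a phosphatidate phosphatase gene, was at 7.41 and 10.4 CPM in G1E and at 1.36, 1.05 and 1.74 CPM at 0 h, a log2 fold change of -2.68 ± 0.42 (SE). Ctsz, the gene of the lysosomal protease cathepsin Z, was at 9.59 and 10.0 CPM in G1E and at 2.00, 1.95 and 3.27 CPM at 0 h, at -2.02 ± 0.49. Both were lower in every 0 h library than in either G1E library. Tcea2 rested on 49 reads in G1E and 5 at 0 h, and Ptk6, at -0.27 ± 0.77, on 7 and 13 reads. Rbm38, which encodes an RNA-binding protein that acts in red cell splicing, was at -0.11 ± 0.38, and Lama5, a laminin gene, at -0.04 ± 0.18.

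With a mean count of at least 50, the named genes that rose most above the common shift between the lines were of several kinds. Wfdc15a (0 reads in G1E and 62 at 0 h) and Oprl1 (0 and 8 reads) had larger log2 fold changes, but their mean counts were below that limit. Zbtb46, a zinc finger transcription factor gene known from dendritic cells, was at 3.8 and 3.38 CPM in G1E and at 20.1, 20.9 and 36.0 CPM at 0 h, a log2 fold change of 2.83 ± 0.32 (SE). Plcg1, the gene of phospholipase C gamma 1, was at 30.6 and 34.0 CPM in G1E and at 82.4, 70.1 and 86.6 CPM at 0 h, at 1.30 ± 0.14. Rgs19, a regulator of G protein signalling, was at 1.62 ± 0.47, and Ctsa, the gene of the lysosomal protective protein cathepsin A, at 1.51 ± 0.28. Gnas, which encodes the stimulatory G protein alpha subunit, was at 1.21 ± 0.19 and its antisense partner Nespas at 1.57 ± 0.23. Whether the counting used strand is not given in the sources used here, so reads of Gnas and Nespas, of Uckl1 and Uckl1os, and of Ctsa and Neurl2, which share a start peak, cannot be told apart with certainty.

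The difference from G1E was present at each time in estradiol. Against G1E, the median over the genes of the domain was 0.64 at 0 h, 0.66 at 13 h and 0.86 at 24 h, and that of the rest of chromosome 2 was 0.09, 0.06 and 0.06. These comparisons share the G1E libraries. The level of each library was summarised as the median centred log2 CPM over the domain minus that over the rest of chromosome 2. Over elements it was -0.52 and -0.47 in G1E, -0.09, -0.05 and 0.03 at 0 h, 0.11 and 0.16 at 13 h, and 0.35 and 0.50 at 24 h. Over gene bodies it was -0.49 and -0.43 in G1E, -0.07, 0.02 and 0.02 at 0 h, 0.13 and 0.16 at 13 h, and 0.24 and 0.28 at 24 h. The 4 groups did not overlap in either measure and stood in the order G1E, 0 h, 13 h, 24 h, of which the step from G1E to 0 h was fixed by the choice of the domain.

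**Figure D3:**
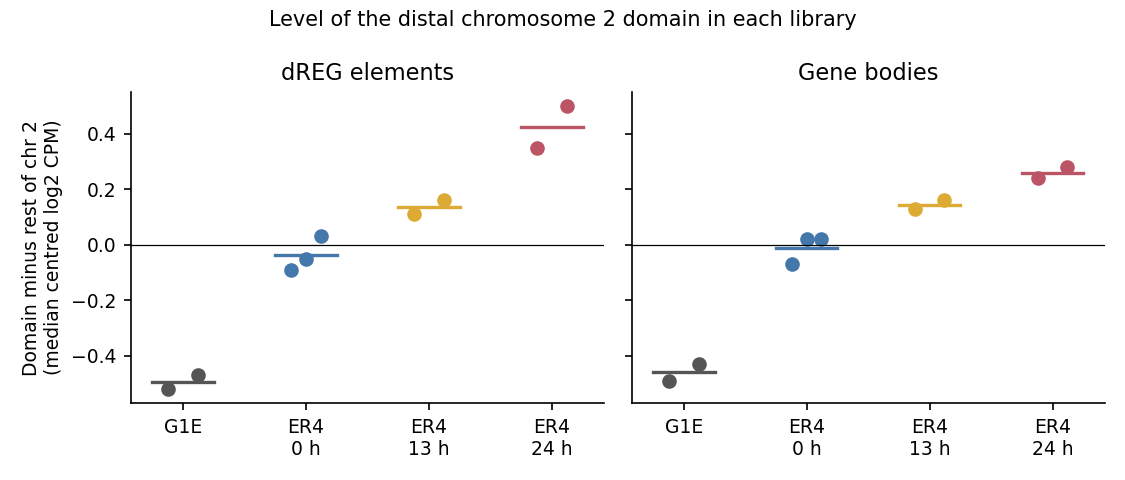
Median centred log2 CPM over the domain minus that over the rest of chromosome 2, for elements (left) and gene bodies (right), 1 point per library with the group mean as a bar. The G1E libraries lie between -0.52 and -0.43 and all 7 G1E-ER4 libraries at or above -0.09.

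From 0 h to 24 h this level changed by 0.46 over elements, with a pooled SD within groups of 0.066, and by 0.27 over gene bodies, with a pooled SD of 0.04. The change over elements was in part a fall of the reference. The median of the domain was 0.03, -0.00 and 0.09 at 0 h and 0.21 and 0.32 at 24 h. That of the rest was 0.12, 0.05 and 0.07 at 0 h and -0.13 and -0.19 at 24 h. Over gene bodies the rest lay between 0.03 and 0.05 at both times. The element value depended on which entries were read, since with at least 100 reads on average it was 0.21, and 0.37 with the rest of the autosomes as the reference. No p is given for it, because the members were chosen with these data known. The titles open with numbers that fall into runs, whose meaning the labels do not give, and the comparisons possible within a run gave the same direction. No run holds libraries of both 13 h and 24 h, so the direct difference between these times cannot be told apart from one between runs. In the run that holds both lines, 0 h replicate 3 exceeded G1E replicate 1 by 0.55 over elements and 0.51 over genes. The direction of that difference between the lines was largely fixed by the choice of the domain. Within runs, 13 h exceeded 0 h by 0.20 and 0.21 over elements and by 0.19 and 0.14 over genes, and 24 h exceeded 0 h by 0.32 and 0.48 over elements and by 0.23 and 0.26 over genes, where both 24 h values are against the same library, 0 h replicate 3.

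Over whole chromosomes the median shifts between the lines were smaller, but such a median can hide the shift of a part. Stretches of other chromosomes were not scanned here, apart from the stretch of chromosome 4 given below. The median shift of genes between 0 h and G1E was 0.15 on chromosome 2 as a whole, 0.15 on chromosome 12 and -0.23 on chromosome 4. Elements of chromosome 4 between 100 and 150 Mb had a median of -0.36 (n = 1327), with 27.7% above 0, so that stretch was shifted in the opposite direction to the distal part of chromosome 2.

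After 24 h in estradiol 50 of the 124 tested genes of the domain had risen and 26 had fallen by edgeR's quasi-likelihood test, against 29% and 30.7% of all 13825 genes tested. Their median log2 fold change was 0.25, against -0.04 on the rest of chromosome 2 and -0.07 over all genes. The share that rose was 40.3%, against 32.2% on the rest of chromosome 2, and the share that fell 21% against 33.5%. The split depends on scaling. With libraries scaled to their total counts the median of all genes was -0.45 and that of the domain -0.14. Under that scaling 34 genes of the domain were higher and 41 lower, and the shares of all genes called are not given here. The domain lay above the median of all genes under both scalings.

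After 13 h 36 genes of the domain had risen and 19 had fallen, against 20.1% and 20.9% of all genes, with a median of 0.08 against -0.05 on the rest of chromosome 2. Of these, 35 were also higher at 24 h and 15 also lower, and none was called in the opposite direction, but both comparisons share the 0 h libraries. Between 13 h and 24 h 21 genes were higher and 13 lower, against 11.7% and 12.5% of all genes. That last count rests on few libraries, and no run of title numbers holds both times. It was 9 in place of 34 without 24 h replicate 2 and 15 without 13 h replicate 2, and under scaling to total counts it was 4 higher and 26 lower. Under that scaling the median of the domain was -0.20 and that of all genes -0.34, and the shares of all genes called are not given here.

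Elements of the domain also rose more often than they fell. Of 417 tested entries 127 rose and 83 fell by 24 h, against 22.7% and 29.5% of all elements, with a median log2 fold change of 0.23 against -0.27 on the rest of chromosome 2. With entries that had no reads in a group set to the bound of 3 reads, these medians were 0.25 and -0.12. By 13 h 72 rose and 52 fell, against 15.2% and 18.6%, and with the gene-body scaling 82 rose and 31 fell. Between 13 h and 24 h 37 rose and 19 fell, against 5.28% and 7.82%. With scaling to total counts this split was 16 higher and 20 lower, and with the gene-body scaling 12 and 11. That count of 56 was 6 without 24 h replicate 2, 33 without 24 h replicate 1, 23 without 13 h replicate 2 and 30 without 13 h replicate 1. The shares of all elements called under the other scalings and without these libraries are not given here.

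Among 9 blood cell genes of the domain 3 rose and 3 fell by 24 h, shares near the 29% and 30.7% of all genes. Tubb1, the beta tubulin of platelets and their precursors, was at 0.851 and 0.749 CPM in G1E, 1.15, 0.697 and 0.935 CPM at 0 h, 14.3 and 5.43 CPM at 13 h, and 34.3 and 19.4 CPM at 24 h. Its log2 fold change from 0 h to 24 h was 4.85 ± 0.44 (SE), with an edgeR adjusted p of 1.01e-05. All libraries in estradiol lay above all others. Fam210b was at 15.1 and 15.6 CPM in G1E, 35, 27.2 and 19.4 CPM at 0 h, 154 and 160 CPM at 13 h, and 212 and 241 CPM at 24 h, a change of 3.06 ± 0.21 from 0 h (adjusted p = 2.18e-06). Its groups did not overlap at any step. Gnas rose by 0.81 ± 0.18 (adjusted p = 0.00317), a call that was lost under scaling to total counts (adjusted p = 0.099).

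The 3 blood cell genes that fell by 24 h had all been higher at 0 h than in G1E. In that contrast, which chose the domain, 8 of the 9 blood cell genes and 117 of the 124 tested genes lay above 0. Fam210b and Gnas, which rose by 24 h, were among them. The falls are measured from the same 0 h libraries. Rgs19 was at 8.50 and 7.03 CPM in G1E, 23.1, 25.3 and 23.3 CPM at 0 h, 3.85 and 6.39 CPM at 13 h, and 4.74 and 1.19 CPM at 24 h, a change of -3.01 ± 0.51 from 0 h. Plcg1 fell to 39.3 and 38.3 CPM at 24 h, a change of -1.04 ± 0.14 (adjusted p = 0.000142). Cebpb was at 11.2 and 11 CPM in G1E, 23.9, 30.8 and 17.8 CPM at 0 h and 11.3 and 5.65 CPM at 24 h, a change of -1.51 ± 0.34, a call that was lost with the runs of title numbers as a block (edgeR adjusted p = 0.0561). Levels at 24 h were below G1E for Rgs19 in both libraries. Those of Plcg1 lay above both G1E libraries, but that difference, 0.27 ± 0.15, did not pass the test (edgeR adjusted p = 0.151). Rbm38, Ptpn1 and Stk4 did not pass the test at 24 h, with changes of -0.48, 0.23 and 0.09. Rbm38 passed at 13 h, at -1.11 ± 0.39 (adjusted p = 0.0445), but not without 13 h replicate 1 (adjusted p = 0.26), nor without either G1E library or 0 h replicate 2 or 3 (adjusted p of 0.0637 to 0.107).

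Transcription and chromatin genes were the longest list, with 19 tested. By 24 h 13 of them rose and 2 fell, against 29% and 30.7% of all genes. Their median log2 fold change was 0.65, against 0.25 over the genes of the domain. With scaling to total counts 6 rose and 2 fell, and their median was 0.26, against -0.45 over all genes. The shares of all genes called under that scaling are not given here. Zbtb46 rose further, to 161 and 191 CPM at 13 h and 153 and 251 CPM at 24 h, a change of 2.97 ± 0.28 (SE) from 0 h with an edgeR adjusted p of 1.19e-05. Ncoa3, a nuclear receptor coactivator gene, rose by 1.63 ± 0.26. Zfp217, a zinc finger gene, was at 285, 326 and 313 CPM at 0 h, 646 and 522 CPM at 13 h, and 864 and 895 CPM at 24 h, a change of 1.52 ± 0.13, and its groups did not overlap. Zhx3, Gmeb2, Znfx1, Helz2, Nelfcd, Chd6, Dido1, Pcif1, Zgpat and Taf4a also rose, by 0.43 to 0.98. Zfp64, another zinc finger gene, fell by 1.21, from 207, 211 and 197 CPM to 97.5 and 79.8 CPM. Adnp, a homeobox chromatin gene, fell by 0.58, but not past the test without 24 h replicate 1 (edgeR adjusted p = 0.0692) or replicate 2 (adjusted p = 0.075).

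**Figure D4:**
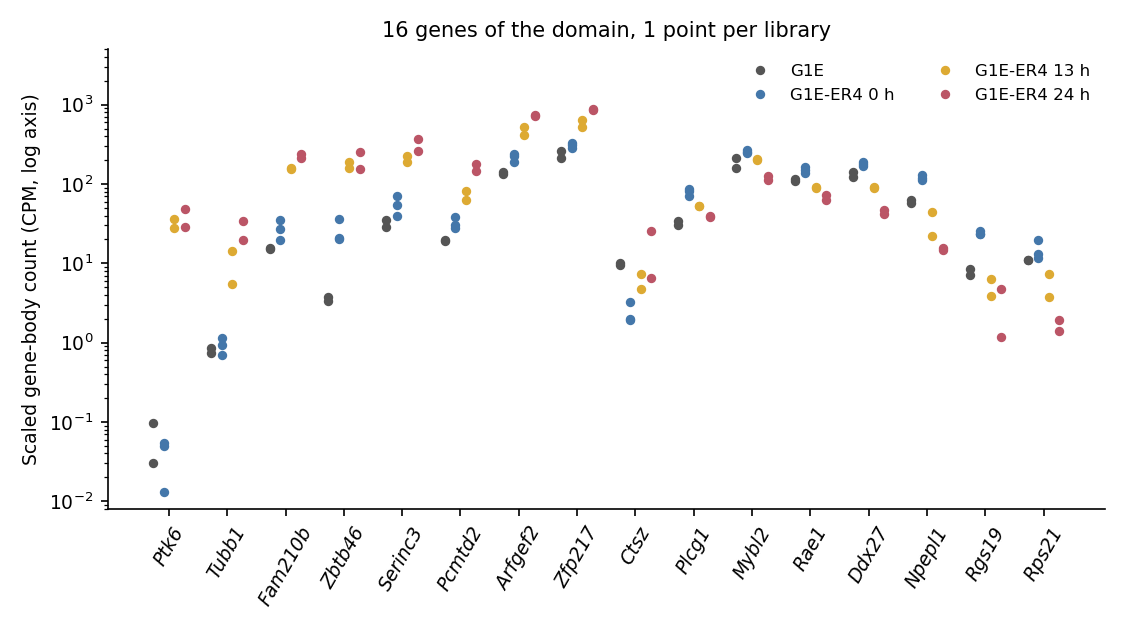
Gene-body counts in CPM, scaled with TMM factors, on a log axis for 16 genes of the domain, 1 point per library coloured by group. Ptk6 and Tubb1 are near the floor in G1E and at 0 h and rise with estradiol, and Ddx27, Npepl1 and Rps21 fall.

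Of 7 cell division genes 2 rose and 2 fell by 24 h, shares near the 29% and 30.7% of all genes. Top1, the gene of DNA topoisomerase I, rose from 324, 430 and 388 CPM to 771 and 835 CPM, a log2 fold change of 1.08 ± 0.19 (SE) with an edgeR adjusted p of 0.000659. Aurka rose by 0.88 ± 0.28 (adjusted p = 0.02), but the call was lost without 24 h replicate 2 (adjusted p = 0.092) and under scaling to total counts (adjusted p = 0.14). Mybl2 was at 268, 244 and 255 CPM at 0 h, 205 and 198 CPM at 13 h, and 127 and 111 CPM at 24 h, a change of -1.11 ± 0.14 (adjusted p = 7.76e-05). Rae1, which acts in RNA export and the mitotic checkpoint, fell by 1.14 ± 0.13. Ube2c, the ubiquitin-conjugating enzyme of the anaphase-promoting complex, did not pass, at 0.60 ± 0.30 (adjusted p = 0.114).

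RNA processing and translation genes included some of the largest falls of the domain. By 24 h 2 of 8 rose and 4 fell, against 29% and 30.7% of all genes. Ddx27, an RNA helicase of ribosome assembly, was at 122 and 143 CPM in G1E, 169, 178 and 191 CPM at 0 h, 90.6 and 87.8 CPM at 13 h, and 46.8 and 42.4 CPM at 24 h. The change from 0 h was -2.01 ± 0.13 (SE), with an edgeR adjusted p of 1.77e-06, and every group was clear of the next. Rps21, a protein of the small ribosomal subunit, was at 11.6, 13.2 and 19.8 CPM at 0 h and 1.94 and 1.40 CPM at 24 h, a change of -3.15 ± 0.38. Srsf6, a splicing factor gene, fell by 0.91 and Ythdf1, a reader of methylated RNA, by 0.42. Prpf6, a spliceosome gene, rose by 1.38 ± 0.18 and Stau1, the gene of a double-stranded RNA-binding protein, by 1.34 ± 0.14.

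**Figure D5:**
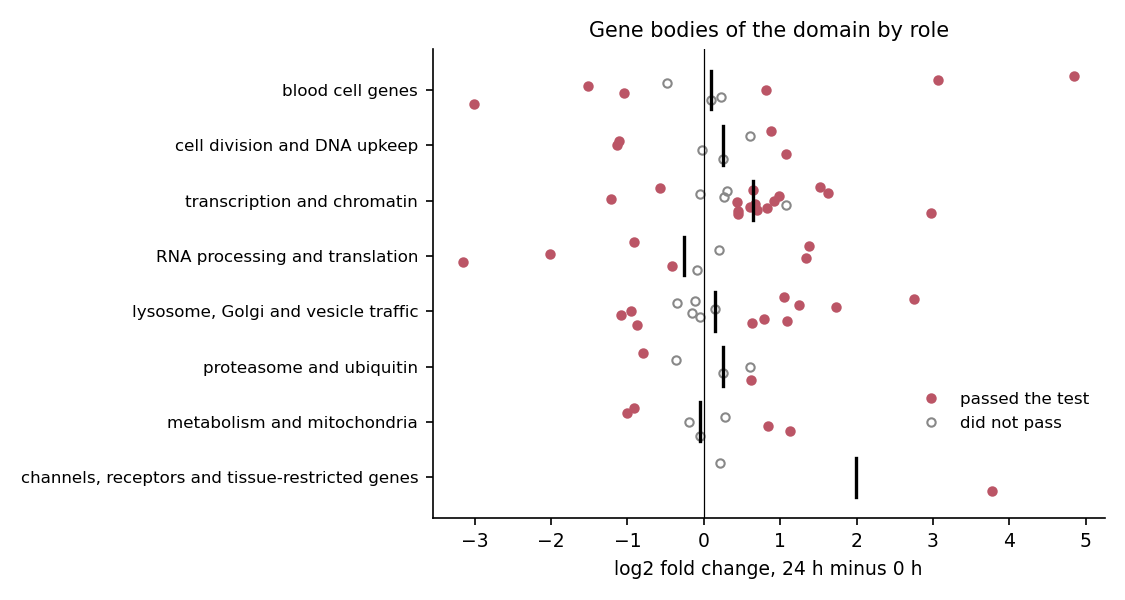
Log2 fold change of gene bodies from 0 h to 24 h for the genes of the domain in 8 role lists, 1 point per tested gene, filled where it passed the edgeR test, with the list median as a bar. The transcription and chromatin list has its median at 0.65, and the other lists with 5 or more genes have medians between -0.26 and 0.25.

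Of 15 genes of the lysosome, Golgi and vesicle traffic 7 rose and 3 fell by 24 h, against 29% and 30.7% of all genes. With scaling to total counts 5 rose and 5 fell, where the shares of all genes are not given here. Arfgef2, which activates ARF GTPases at the Golgi, was at 143 and 133 CPM in G1E, 187, 238 and 228 CPM at 0 h, 410 and 519 CPM at 13 h, and 736 and 712 CPM at 24 h, a log2 fold change of 1.73 ± 0.14 (SE) from 0 h. Rab22a, an endosomal GTPase gene, rose by 1.24 ± 0.11 and Dnajc5, a vesicle chaperone gene, by 1.09 ± 0.11. Ctsz, low at 0 h, was at 4.68 and 7.32 CPM at 13 h and 6.56 and 25.9 CPM at 24 h, a change of 2.75 ± 0.49 with wide spread between the 24 h libraries, and its call was lost with the runs of title numbers as a block (edgeR adjusted p = 0.053). Ctsa rose by 1.05 ± 0.26, a call lost under scaling to total counts (adjusted p = 0.0589) and without 24 h replicate 1 (adjusted p = 0.0726). Arfrp1, Slc35c2 and Snx21 fell, by 0.95, 0.88 and 1.09, but Snx21 did not pass without 24 h replicate 1 (edgeR adjusted p = 0.093) or replicate 2 (adjusted p = 0.076). Among 5 proteasome and ubiquitin genes, Rnf114 rose by 0.62, a call lost under scaling to total counts (adjusted p = 0.12), and the proteasome subunit gene Psma7 fell by 0.79.

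Of 7 metabolic and mitochondrial genes 2 rose and 2 fell by 24 h, shares near the 29% and 30.7% of all genes. Slmo2, a mitochondrial lipid transfer gene, and Uckl1, a uridine kinase gene, rose by 0.84 and 1.13 on the log2 scale. Tomm34, a gene of mitochondrial protein import, fell by 1.00 ± 0.14 (SE) and Atp5e, an ATP synthase subunit gene, by 0.91 ± 0.33. The Atp5e call was lost without 0 h replicate 2 (edgeR adjusted p = 0.094) and without either 24 h library (adjusted p = 0.12). Of 2 tested genes for channels and receptors, Slc9a8, a sodium-proton exchanger gene, did not pass, at 0.21 ± 0.15. Oprl1, an opioid receptor-like gene, rose by 3.78 ± 0.64 but had 8 reads in all 0 h libraries together.

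The change of Ptk6 was the largest by the rule for named genes. Ptk6, a cytoplasmic tyrosine kinase gene, was at 0.03 and 0.0966 CPM in G1E, 0.0504, 0.0129 and 0.055 CPM at 0 h, 36.7 and 28.2 CPM at 13 h, and 48.2 and 28.8 CPM at 24 h. From 0 h the log2 fold change was 9.53 ± 0.44 (SE) at 13 h and 9.78 ± 0.45 at 24 h, with edgeR adjusted p of 1.01e-06 and 3.36e-07. It had almost no reads in G1E and at 0 h and the difference between 13 h and 24 h, 0.25 ± 0.33, did not pass the test. Serinc3, a membrane protein gene, rose by 2.54 ± 0.23, from 70.0, 54.0 and 39.6 CPM to 264 and 370 CPM. Pcmtd2, a gene with a methyltransferase domain, rose by 2.34 ± 0.19, from 38.7, 30.2 and 27.7 CPM to 145 and 181 CPM. Uckl1os had its highest values at 13 h, with 43.1 and 33.8 CPM, against 24.5 and 18.8 CPM at 24 h, but the difference of -0.83 ± 0.29 between those times did not pass (adjusted p = 0.0639).

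Npepl1, an aminopeptidase-like gene, was among the genes with the largest falls by the rule. It was at 57.4 and 62.8 CPM in G1E, 111, 130 and 119 CPM at 0 h, 21.8 and 44.9 CPM at 13 h, and 15.6 and 14.7 CPM at 24 h. The change from 0 h to 24 h was -2.98 ± 0.28 (SE), with an edgeR adjusted p of 1.22e-05, and both 24 h libraries lay below the G1E libraries as well.

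The start elements of Tubb1, Fam210b, Npepl1 and Ddx27 moved with their gene bodies, except for 1 strand at Ddx27. The element at the start of Tubb1, chr2:174275550-174277801 in mm9, was at 0.294, 0.0621 and 0.113 CPM at 0 h, 8.78 and 2.88 CPM at 13 h, and 15.2 and 9.84 CPM at 24 h, a log2 fold change of 6.30 ± 0.61 (SE, edgeR adjusted p = 2.95e-06). The start of Fam210b, chr2:172170150-172175501, rose by 2.68 ± 0.20, and that of Npepl1, chr2:173934150-173937951, fell by 1.22 ± 0.18. The start of Ddx27, chr2:166839150-166841901, was listed as 2 strands that moved in opposite directions. The plus strand, that of the gene, was at 37.6, 42.7 and 39.9 CPM at 0 h and 17.0 and 14.2 CPM at 24 h, a change of -1.36 ± 0.22 (adjusted p = 0.000178). The minus strand was at 12.6, 6.84 and 9.13 CPM at 0 h and 30.9 and 29.2 CPM at 24 h, a change of 1.66 ± 0.32 (adjusted p = 0.000648). Both strands were clear of overlap between 0 h and 24 h.

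Among the 5 elements with the largest increase by 24 h, 3 lay around Ptk6. The element at its start, chr2:180935500-180938551, was at 0.187, 0.0311 and 0.0378 CPM at 0 h and 29.0 and 18.1 CPM at 24 h, a log2 fold change of 8.10 ± 0.55 (SE, edgeR adjusted p = 1.73e-07). An element inside the neighbouring kinase gene Srms, chr2:180939450-180942151, reached 17.6 and 13.7 CPM at 24 h. The minus strand of an intergenic peak between Ppdpf and Ptk6, chr2:180925850-180927001, reached 48.4 and 51.4 CPM. The fourth was the Tubb1 start, and the fifth an intergenic element between Gm14405 and Gm14420, chr2:177037500-177039751, which went from 0.268, 0.155 and 0.662 CPM to 12.8 and 24.6 CPM. The 0 h and 24 h libraries did not overlap for any of the 5.

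The elements described here with large decreases by 24 h lay inside a gene or between genes. An element inside Hnf4a, a liver transcription factor gene, chr2:163377500-163379951, was at 7.78 and 5.37 CPM in G1E and 2.94, 1.55 and 2.08 CPM at 0 h, and had no reads at 24 h. It was at least 51.2-fold lower at 24 h than at 0 h, against a floor of 3 reads over the group.

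A further 3 elements with large decreases were intergenic. One between Gm14496 and Polr3k, chr2:181702850-181705501, went from 6.29, 2.98 and 4.88 CPM at 0 h to 2 reads in both 24 h libraries, a ratio of 167 with a 95% counting interval of 46.2 to 1390. One near Ptpn1, chr2:167572500-167573901, went from 21.4, 9.07 and 10.9 CPM to 0.802 and 0.652 CPM. One near Zfp217, chr2:170077550-170079101, went from 9.74, 8.70 and 7.13 CPM to 0.588 and 0.341 CPM, while the gene body of Zfp217 rose. These 2 were also higher at 0 h than in G1E, where the element near Ptpn1 was at 5.25 and 4.24 CPM and the element near Zfp217 at 4.06 and 3.18 CPM. In that contrast, which chose the domain, 307 of the 417 tested entries lay above 0.

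The entries of the domain differed from the rest of chromosome 2 in kind. Of the 498 entries 201 were intergenic (40.4%, against 29.4% on the rest of the chromosome), 158 lay at gene starts (31.7% against 31.2%), 78 were sense within genes (15.7% against 23.1%) and 61 antisense (12.2% against 16.3%). They stood at 22.9 per Mb against 18.2 per Mb. The deposited table puts each entry in a cluster that the authors made from these libraries, or in none. Cluster 8 held 80 entries of the domain, 16.1% against 4.78% of the rest, and cluster 4 held 6.22% against 2.17%. Cluster 5 held 5.22% against 10.2%. Since the clusters rest on the same counts, these shares are a description.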

How the data were processed

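PRO-seq reads per dREG entry and per gene body were taken as whole-number counts, deposited by the authors as raw counts per the file headers. Aligner BWA and build mm9 are named in the submitters' processing notes. No counting tool, strand setting or annotation is given in the sources used here. Groups came from the titles. The fit used edgeR 4.0.16 under R 4.3.3 (TMM, filterByExpr, robust quasi-likelihood, 4 group means, 5 residual degrees of freedom), on 35158 entries and 13825 genes, and Benjamini-Hochberg adjustment ran over each whole table, at a threshold of 0.05. The script was tested on simulated counts. SE is the absolute log2 fold change over the square root of F. CPM use TMM, and n is the number of libraries. Counting intervals and floors cover counting error only.

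The members, lists and alternatives were chosen with earlier results of these data known. A planned permutation test of the domain level is not given for that reason. Genes were named by rule: the largest called changes with a mean count of at least 50 and no overlap between groups (8 each way at 24 h, 6 at 13 h, 4 between 13 h and 24 h), plus fixed genes, without clone names. Between lines up to 6 of the largest changes each way with that mean count were named, whether or not they were called or the groups overlapped. Elements were the 5 largest changes each way. An element that this rule names is not reported here. Genes printed as a group of 7 below the common shift, those near the step at 156 Mb, and the start elements of Fam210b, Npepl1 and Ddx27 were chosen after their values were seen. The alternatives were DESeq2 1.42.0, no or a stricter filter, other scalings, blocks, other limits and leaving out each library. Promoters came from RefSeq tables of GRCm38.p6 and were matched by symbol.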

Additional observations from a re-analysis of the deposited data

How the results depend on the processing

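The shift of the domain over the rest of chromosome 2 between 0 h and G1E kept its direction under every alternative. The domain was chosen by this difference in the same libraries, which largely fixed that direction, so the values show only how the size varied. It was 0.55 over genes, 0.51 with the replicate block and with the block of title number runs, and 0.51 to 0.55 leaving out 1 library. Over elements it was 0.47, 0.56 with the block of title number runs, and 0.36 (without G1E replicate 1) to 0.54 leaving out 1 library. The level from 0 h to 24 h changed by 0.46, by 0.21 with at least 100 reads on average, by 0.37 against all other autosomes, by 0.27 over gene bodies (added after seeing the data, like the limits at 156 Mb), and by 0.40 to 0.56 leaving out 1 library. Calls between 13 h and 24 h were the least firm. The 56 elements were 36 with total-count scaling, 23 with gene-body scaling, 9 with the block of title number runs and 6 to 71 leaving out 1 library. The 34 genes were 0 with that block by edgeR, where 33 had an unadjusted p under 0.05, and 9 to 29 leaving out 1 library. Without a block DESeq2 called 43, and it was not run with the block. Leaving out 1 library gave 89 to 134 elements and 37 to 56 genes at 13 h, and 169 to 216 and 64 to 76 at 24 h. The shares of all elements and genes called under the alternatives are not given here. Same-numbered libraries of 0 h and 13 h deviated together (correlations of 0.459 and 0.444), and their titles have neighbouring numbers, but other pairs gave -0.15 to 0.162, so the replicate numbers do not pair all groups. Deviations of the 2 libraries at 13 h from their mean mirror each other, so the correlations of 0.459 and 0.444 are not independent. With the replicate block the counts at 13 h, at 24 h and between them were 114, 209 and 81 elements and 38, 72 and 23 genes, where 55, 76 and 34 genes were called without it. Of 88 calls of named genes, 50 held under all alternatives run, and no called value changed sign. Elements with few reads set the limit of depth, since 81 of 498 entries could not be tested.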
